A study of Mus musculus with 36 samples.

Results

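The 9 chaperone genes described here were Hsp90aa1, Hsp90ab1, Hsp90b1, Hspa4, Hspa5, Hspa8, Hspa9, Hspd1 and Hsph1, which encode members of the HSP90, HSP70, HSP110 and HSP60 families. They were chosen by name, as the rows of the count table that carry these symbols, and made up 9 of the 16614 genes in it. Ribosome-protected fragments (RPFs), the pieces of mRNA that a ribosome shields from nuclease, were sequenced from brains of mice aged 5 days. The RPFs came from the pellet of a sucrose gradient, where the densest ribosome clusters collect, and from fraction 5/6 of the same gradient. RNA-seq libraries were made from whole brain homogenate. The study asked whether FMRP, the RNA-binding protein encoded by Fmr1 and lost in fragile X syndrome, changes which mRNAs the pelleted ribosomes hold and where on them they stop.

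The WT mice were C57BL/6 and the other genotype was FMR1 KO, a constitutive knockout that lacks FMRP in every cell. In the standard preparation, the buffer held 10 mM MgCl2 and the nuclease digestion was the stronger of the study's digestions. In the low nuclease preparation, the buffer held 2.5 mM MgCl2 and the digestion was weaker, so that buffer and digestion changed together and cannot be told apart. Each of the 12 combinations of genotype, material and preparation had 3 libraries, 36 in all, and each preparation pooled 10 brains. The tissue was whole brain, so a level is a sum over all its cell types, and fewer cells of a type and less RNA per cell cannot be told apart. The 3 RPF libraries of a group were joined after a barcoded linker had been added and went through the later steps together, so the p-values below measure the spread between these libraries, and pool and group cannot be told apart.

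Chaperones bind other proteins while these fold, assemble or cross membranes. HSP70 proteins hold short exposed stretches of a chain in a cycle driven by ATP, J-proteins start that cycle, and nucleotide exchange factors, among them the HSP110 proteins, end it. HSP90 proteins take over partly folded clients such as kinases and steroid receptors with the help of co-chaperones, and HSP60 forms a closed chamber inside mitochondria. Neurons make the cytosolic proteins at high levels at all times, and the endoplasmic reticulum (ER) and the mitochondria each have HSP70 and HSP90 relatives of their own.

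The libraries held 4284209 to 147207607 counts without Cdk8, a single gene that took up to 63.4% of the counts of a library and was left out. Neuronal markers (Tubb3, Map2, Stmn2, Snap25 and Syt1) summed to 5253 to 11210.0 CPM in the 18 standard libraries, where CPM are counts scaled to the same total in each library, and the liver genes that were measured to at most 1.89 CPM. Fmr1 was at 60.6 to 71.9 CPM in WT RNA and at 16.4 to 18.1 CPM in FMR1 KO RNA. It was at 64.6 to 67.8 CPM in the WT pellets and at 4.79 to 4.93 CPM in the FMR1 KO pellets. The library labelled WT fraction 5/6 replicate 3 held Fmr1 at 3.17 CPM, below every FMR1 KO fraction 5/6 library (5.98 to 10.7 CPM) and far from the other WT fraction 5/6 libraries (68.6 and 100.1 CPM). Its label is therefore in doubt, and the results on fraction 5/6 are also given without it. Among the low nuclease RNA libraries, 3 had 81.5% to 85.0% of their counts on only 10 genes (replicate 2 of each genotype and FMR1 KO replicate 3).

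Hsp90aa1 and Hspa8, the genes of HSP90 alpha and of the constitutive cytosolic HSP70, and Hspd1, the gene of mitochondrial HSP60, carried nearly all of the recurring RPF peaks of the group. A peak here is a stretch of a transcript where RPF coverage stood out in the deposited list of a library, and a recurring peak is a place where all 6 standard pellet lists, WT and FMR1 KO, had a centre within 6 nt of the centre of 1 of their peaks. The position given is the median centre, from which single lists can lie farther, as at codon 424 of Hspd1 in FMR1 KO replicates 1 and 2 and at codon 337 of Hspa9 in WT replicate 3. There were 21 such peaks on the 9 transcripts, with 10 on Hsp90aa1, 5 on Hspa8, 5 on Hspd1 and 1 on Hspa9, the gene of the mitochondrial HSP70. Hsp90ab1, Hsp90b1, Hspa4, Hspa5 and Hsph1 had 0. In the whole data set, 381 of the 2611 transcripts listed in all 6 pellet lists had at least 1 recurring peak, and no transcript had more of them than Hsp90aa1. In all 6 fraction 5/6 lists, 14 peaks recurred (8 on Hsp90aa1, 4 on Hspa8, 2 on Hspd1), and 13 recurred in all 12 lists. Without the library labelled WT fraction 5/6 replicate 3 these numbers were 15 and 14.

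The sequences under some of these peaks are shown because their position on the transcript bears on how they can be read. They are taken from the GENCODE M21 transcripts on GRCm38, 5′ to 3′, with 17 nt to each side of the centre, and the capitals mark the codon at the centre. The first 4 lie across an exon-exon junction, and the last 2 inside an exon.
Hsp90aa1 codon 698: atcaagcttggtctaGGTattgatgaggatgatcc
Hsp90aa1 codon 448: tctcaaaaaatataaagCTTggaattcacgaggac
Hspa8 codon 585: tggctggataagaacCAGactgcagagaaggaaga
Hspd1 codon 202: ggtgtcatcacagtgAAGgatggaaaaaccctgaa
Hsp90aa1 codon 196: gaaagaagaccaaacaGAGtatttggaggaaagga
Hspd1 codon 424: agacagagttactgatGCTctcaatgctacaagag
The Hsp90aa1 peaks are on the minus strand of chromosome 12, at chr12:110692114-110692129 with chr12:110691631-110691649 (codon 698), at chr12:110693312-110693328 with chr12:110693150-110693167 (codon 448) and at chr12:110694630-110694664 (codon 196). The Hspa8 peak is on the plus strand at chr9:40804678-40804695 with chr9:40804932-40804948. The Hspd1 peaks are on the minus strand at chr1:55083067-55083084 with chr1:55082135-55082151 (codon 202) and at chr1:55079158-55079192 (codon 424). All are in coding exons.

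Codon 698 of Hsp90aa1 held the tallest of the recurring peaks of this transcript in every pellet list. Its height, in units of RPF coverage that are not scaled between libraries, was 504, 312 and 228 in the WT pellets and 565, 273 and 292 in the FMR1 KO pellets. In fraction 5/6 it was 526 and 234 in replicates 1 and 3 of WT, with no peak in replicate 2, and 192, 387 and 102 in FMR1 KO. The ranges of the genotypes overlapped in the pellet. Codon 585 of Hspa8 had heights of 879, 417 and 384 in the WT pellets and of 669, 263 and 614 in the FMR1 KO pellets. In fraction 5/6 its heights were 505 and 480 in WT replicates 1 and 3, again with no peak in replicate 2, and 318, 486 and 200 in FMR1 KO. These heights overlapped between the genotypes as well, and in WT replicate 3 and FMR1 KO replicate 2 the peak at codon 508 of Hspa8 was taller.

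Of the 20 recurring pellet peaks of Hsp90aa1, Hspa8 and Hspd1, 15 were centred within 6 nt of an exon-exon junction, as at codons 698 and 448 of Hsp90aa1, 585 of Hspa8 and 202 of Hspd1. This was looked at after the windows above had been seen, so it is a description without a test. Over all lists, 88 of the 134 coding peaks of Hsp90aa1 (65.7%) were that close to a junction, against 4.91% of its coding positions. The same count was 63 of 81 (77.8%, against 4.39% of positions) for Hspa8 and 54 of 117 (46.2%, against 7.21%) for Hspd1. It was 6 of 34 for Hspa9, 3 of 40 for Hsp90b1, 1 of 27 for Hsp90ab1 and 1 of 54 for Hspa4, so the nearness to junctions was not shared by all members. In the coding sequences of all transcripts with a recurring pellet peak, 160 of 549 such peaks (29.1%) lay within 6 nt of a junction, against 7.29% of the positions.

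The same 3 genes have many copies in the mouse genome. A stretch of 30 nt, about the length of an RPF, also occurred elsewhere in GRCm38 for 92.1% of the coding windows of Hsp90aa1, 95.03% of those of Hspa8 and 80.8% of those of Hspd1. The copies that covered most of these windows were processed pseudogenes, which have no introns, such as Gm12346 and Gm5844 for Hsp90aa1, Gm15459 and Gm8355 for Hspa8 and Hspd1-ps3 for Hspd1. Hsp90ab1 had copied windows at 23.2%, Hspa9 at 22.1%, and Hsp90b1, Hspa4, Hspa5 and Hsph1 at 0. The 5 recurring peaks of Hsp90aa1, Hspa8 and Hspd1 that lay farther than 6 nt from a junction, among them codon 196 of Hsp90aa1 and codon 424 of Hspd1, each had a 30-nt window over the centre that is found at a single place in the genome. Of the 15 peaks at junctions, 2 (codon 139 of Hspa8 and codon 323 of Hspd1) also had such a window over the centre and 13 had none. Positions with a unique window made up 7.92% of the coding sequence of Hsp90aa1, 4.97% of that of Hspa8 and 19.2% of that of Hspd1. How reads with several matches were treated is not given in the sources used here, and the part of the copies in the peaks and in the counts of these 3 genes was not tested.

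**Figure D1:**
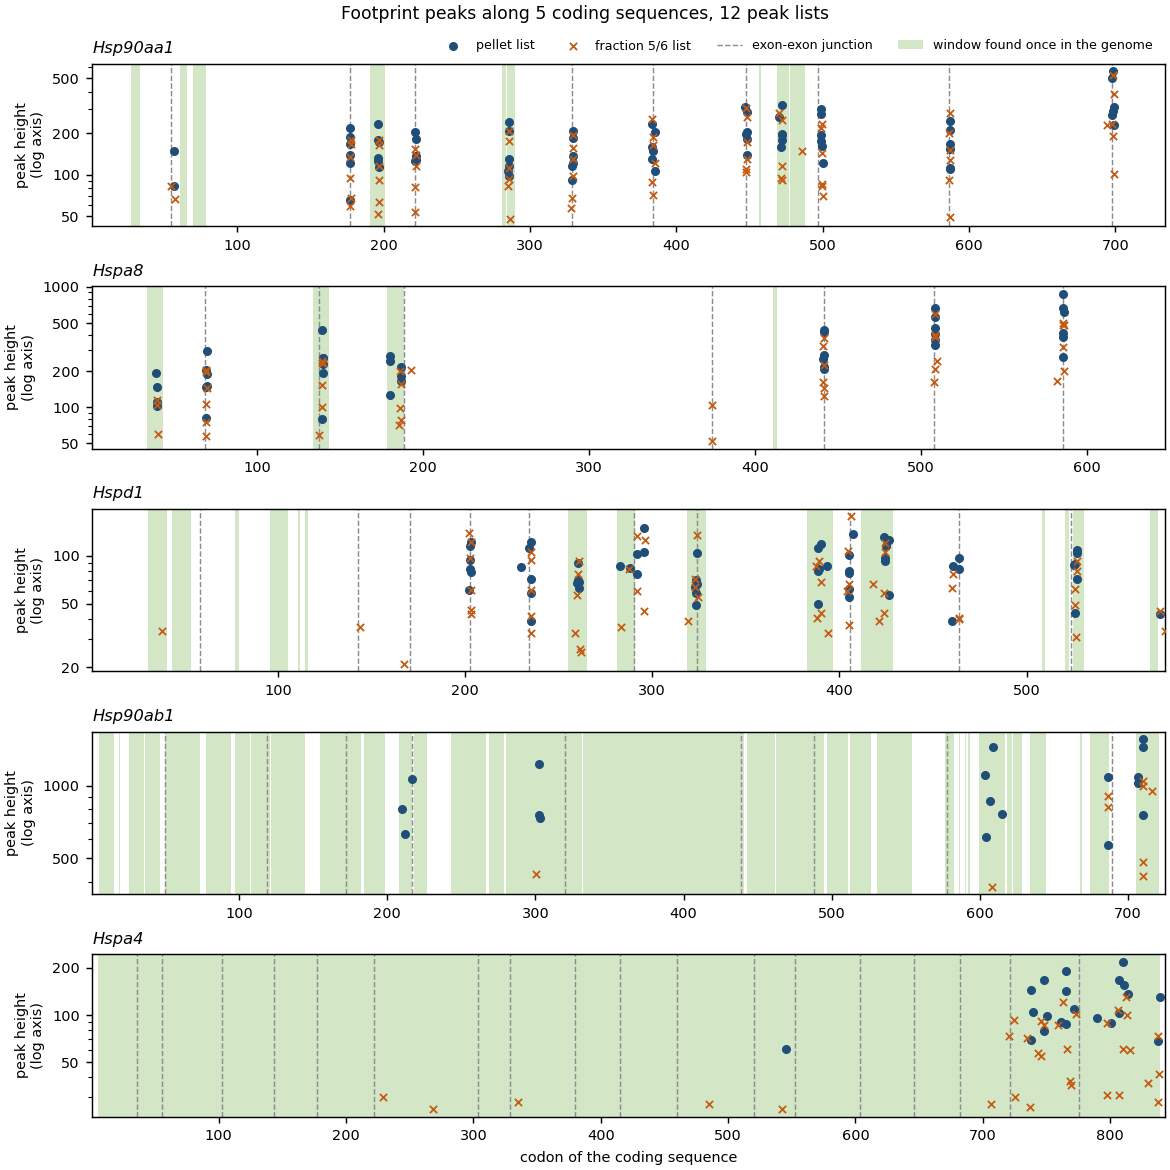
Height of each RPF peak (log axis, coverage units) against its codon on the coding sequences of Hsp90aa1, Hspa8, Hspd1, Hsp90ab1 and Hspa4, with pellet lists as circles, fraction 5/6 lists as crosses, exon-exon junctions as dashed lines and codons over a 30-nt window found at 1 place in the genome in green. Circles and crosses line up at many junctions of Hsp90aa1, Hspa8 and Hspd1, and 48 of the 54 peaks of Hspa4 lie in the last 25% of its coding sequence.

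The transcripts with few copies differed among themselves in where their peaks lay. Hspa9 had its peaks spread along the coding sequence, with 5 of 34 in the first 25% and 3 in the last 25%, and 17.6% of them were within 6 nt of a junction, against 9.43% of its positions. Hspa4, the gene of an HSP110 protein, had 2 to 6 peaks in a pellet list and 4 to 9 in a fraction 5/6 list, and 48 of its 54 coding peaks (88.9%) were in the last 25% of the coding sequence. For Hsp90ab1, the gene of HSP90 beta, 20 of 27 coding peaks (74.1%) were in the last 25%, with the greatest heights of the group (382 to 1562). Hsp90b1, the gene of the ER HSP90, had 25 of 40 coding peaks in the first 25%, at heights of only 2 to 21. Neither Hspa4 nor Hsp90ab1 had a peak at the same place in all 6 pellet lists. Hspa5 and Hsph1 had no peak on the transcript used here, and the peaks listed on another transcript of each (23 in 5 lists for Hspa5 and 66 in 10 lists for Hsph1) did not recur in all 6 pellet lists either.

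Relatives shared no recurring peak at matching residues, which for 6 of the 7 pairs followed from at least 1 gene of the pair having none. Proteins were aligned within the families, and Hsp90aa1 and Hsp90ab1 shared 86.7% of 724 aligned residues, the most of the 7 pairs. Only Hspa8 and Hspa9 both had recurring pellet peaks, and 0 of their 5 and 1 peaks lay within 2 or within 5 aligned residues of each other. Windows of 2 residues around the peaks of the other gene covered 0.46% of the residues of Hspa8 and 3.68% of those of Hspa9. With 5 residues they covered 1.08% and 7.95%. So few peaks could hardly give another count, and no conclusion is drawn from it. The stretch of codons 693 to 703 of Hsp90aa1, around its tallest peak, and codons 684 to 694 of Hsp90ab1 are shown to make the likeness visible, with the differing bases in capitals.
Hsp90aa1 codons 693 to 703: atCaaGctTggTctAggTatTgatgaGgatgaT
Hsp90ab1 codons 684 to 694: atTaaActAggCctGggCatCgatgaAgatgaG
The sequences differ at 9 of 33 bases and encode 10 identical residues of 11. The Hsp90ab1 stretch is on the minus strand within chr17:45568108-45568244, and Hsp90ab1 had a peak centred in it, at codon 686, in 4 of the 12 lists (2 pellet and 2 fraction 5/6 lists). Its height was 1092 and 566 in FMR1 KO pellet replicates 1 and 2, 910 in WT fraction 5/6 replicate 1 and 816 in FMR1 KO fraction 5/6 replicate 2. Codon 686 is 3 residues from the one aligned with codon 698 of Hsp90aa1, so the stretch held peaks in both genes, recurring in all 6 pellet lists only in Hsp90aa1. The share of 30-nt windows with a copy elsewhere was 92.1% for Hsp90aa1 and 23.2% for Hsp90ab1.

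Relative to the length of the peak lists (11389 to 36435 peaks), the number of peaks did not differ detectably between pellet and fraction 5/6 for any of the 7 members with peaks. The smallest p of the exact permutation tests (two-sided, 6 lists against 6) was 0.0779, for Hspa4, which had 0.145 ± 0.0900 peaks per 1000 in the pellet and 0.353 ± 0.251 in fraction 5/6 (SD, n = 6). Leaving out a single list changed the number of members with an exact p under 0.05, not adjusted for the 7 members, from 0 to 1 (without FMR1 KO pellet replicate 2) or to 3 (Hsp90aa1, Hspa4 and Hspd1, without WT fraction 5/6 replicate 1), and leaving out the list of the doubtful WT fraction 5/6 replicate 3 kept it at 0 (smallest exact p = 0.0649). Summed over all 6 lists, Hsp90aa1 had 67 peaks in the pellet and 67 in fraction 5/6, and Hspd1 had 58 and 59. Their rates thus differ through the list lengths. Between the genotypes, 0 places had a peak in all 3 WT pellet lists and in no FMR1 KO pellet list, and the count over all transcripts is not given here. A single place, at codon 426 of Hspd1, met the reverse rule, but its FMR1 KO peaks were also matched to WT peaks in the recurring peak at codon 424, so it is not counted here as particular to FMR1 KO. These counts depended on single lists. Leaving out 1 pellet list gave 0 to 2 places by the first rule and 1 to 5 by the reverse rule, the most without FMR1 KO replicate 3.

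In the counts, the 9 genes together took 0.573% to 0.588% of a WT pellet library and 0.403% to 0.642% of an FMR1 KO pellet library, against 0.311% to 0.379% of WT RNA and 0.371% to 0.386% of FMR1 KO RNA. Per kilobase of exon, the order of levels in RNA was Hsp90ab1 (median of 6 libraries 519 CPM per kb), Hspa8 (205), Hsp90aa1 (129), Hspd1 (61.1), Hspa4 (50.4), Hspa9 (37.2), Hsph1 (19.5), Hsp90b1 (4.65) and Hspa5 (4.14). Each gene was higher than the next in all 6 RNA libraries, except that Hsp90b1 was higher than Hspa5 in 5. In the pellet, the order was Hsp90ab1 (1054 CPM per kb), Hspa8 (148), Hsp90aa1 (136), Hspa4 (101), Hspa9 (72.0), Hsph1 (62.4), Hspd1 (42.2), Hsp90b1 (11.49) and Hspa5 (10.6). Hspa8 was above Hsp90aa1 in only 4 of the 6 pellet libraries. Per kilobase of coding sequence, which ribosomes cover, it was above Hsp90aa1 in all 6, Hsph1 came before Hspa9 and Hspa5 before Hsp90b1, each in 6 of 6 pellets. Hspd1 was below Hspa4, Hspa9 and Hsph1 in the pellet on either length, whereas in RNA it was above all 3 per kilobase of exon and, per kilobase of coding sequence, below Hspa4 and above Hspa9 and Hsph1.

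**Figure D2:**
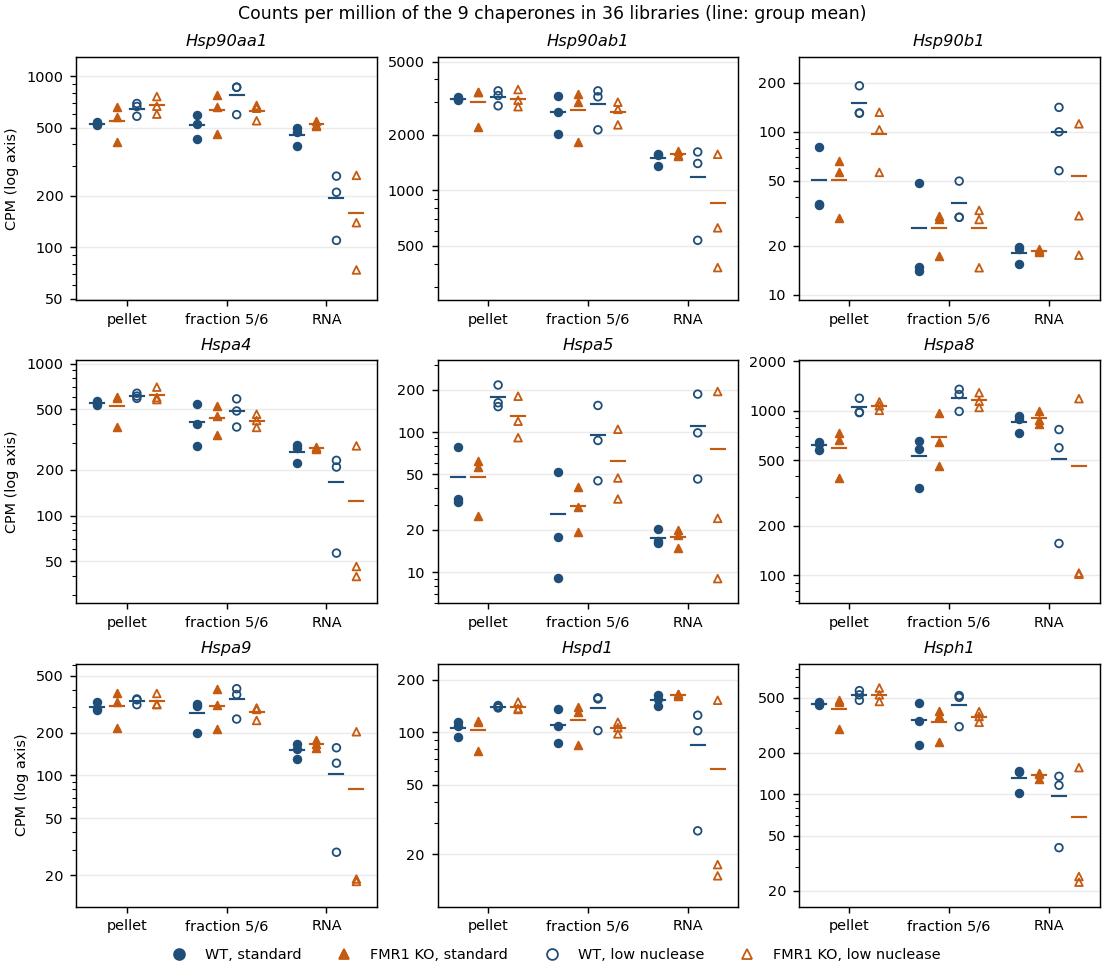
CPM of each of the 9 genes (log axis) in the pellet, fraction 5/6 and RNA libraries, 1 point per library, with WT as circles, FMR1 KO as triangles, the standard preparation filled, the low nuclease preparation open and lines at the group means (n = 3). WT and FMR1 KO points lie side by side in each material, and for Hspa5 all 6 open symbols in the pellet (91.2 to 217 CPM) stand above the filled ones (25.0 to 78.8 CPM).

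Occupancy, the level of RPFs in the pellet relative to RNA, was higher than RNA for all 9 genes in WT and for all 9 in FMR1 KO with TMM scaling, edgeR's correction for differences in the make-up of libraries, while with libraries scaled by their totals alone Hsp90aa1, Hspa8 and Hspd1 were not called higher. Of all genes tested, 31.1% were called higher in WT and 31.8% in FMR1 KO. With totals alone, 8 members in WT (6 higher and 2 lower, where 76.4% of all genes were called in either direction) and 7 in FMR1 KO (6 higher and 1 lower, where 70.0% were) were called. Only 3 members were called in each genotype of the low nuclease preparation, where 52.1% of all genes were called in WT and 28.9% in FMR1 KO, in either direction. Of the RNA libraries in those fits, 3 had over 80% of their counts on 10 genes. Without FMR1 KO pellet replicate 1 or 3 or FMR1 KO RNA replicate 2 or 3, Hspa8 lost its call in FMR1 KO and 8 members remained called. The median log2 fold change of the 9 was 2.22 in WT and 2.01 in FMR1 KO, against -0.10 and -0.07 over all genes tested. Scaling by totals moved the median of all genes by -1.13 in WT and -1.08 in FMR1 KO. The members are given below by role, first their CPM, which are scaled by totals, and then the edgeR quasi-likelihood result with Benjamini-Hochberg adjusted p over all genes, which uses TMM.

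Among the cytosolic HSP90 genes, Hsp90ab1 lies at chr17:45567775-45573271 on the minus strand and was the most abundant gene of the group. It was at 3119, 3204 and 3079 CPM in the WT pellets against 1351, 1576 and 1550.2 CPM in WT RNA. In FMR1 KO it was at 3405, 2198 and 3434 CPM in the pellets and at 1559.9, 1642 and 1534 CPM in RNA. The groups did not overlap, and the occupancy log2 fold change was 2.23 ± 0.15 (SE, adjusted p = 1.8e-05) in WT and 2.02 in FMR1 KO. Hsp90aa1 (chr12:110690605-110702728, minus strand), the HSP90 gene that heat shock induces, was at 519, 524 and 543 CPM in the WT pellets and at 390.4, 475 and 501 CPM in WT RNA. Its FMR1 KO pellets were at 661, 411 and 580.3 CPM and overlapped its RNA levels of 513, 545 and 519 CPM. On the TMM scale its log2 fold change was 1.37 ± 0.15 (adjusted p = 1.4e-04) in WT and 1.16 in FMR1 KO, and with totals alone it was 0.22 (adjusted p = 0.2254) and 0.07 (adjusted p = 0.8282).

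Hspa8 (chr9:40800984-40810087, plus strand) encodes the HSP70 that folds new chains and uncoats clathrin vesicles in the cytosol. Its WT pellets were at 631, 579.9 and 645 CPM, below its WT RNA at 733, 894 and 934 CPM. Its FMR1 KO pellets were at 666, 389 and 727 CPM, below its FMR1 KO RNA at 994, 829 and 872 CPM. On the TMM scale Hspa8 nonetheless had a log2 fold change of 0.70 ± 0.16 (adjusted p = 0.0064) in WT and 0.48 (adjusted p = 0.0308) in FMR1 KO, and with totals alone of -0.46 (adjusted p = 0.0264) and -0.60 (adjusted p = 0.1036). Its direction against RNA thus depended on the scaling, and in the order of the 9 members it stood near the bottom either way. Exons of Hspa8 shared 6.09% of their bases with small nucleolar RNA genes of the same strand.

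The HSP110 genes encode proteins that exchange the nucleotide of HSP70, and Hsph1 had the highest occupancy of the 9 while Hspa4 stood at their median. Hsph1 (chr5:149614287-149636376, minus strand) was at 460.4, 442 and 446 CPM in the WT pellets and at 102.4, 146.9 and 144 CPM in WT RNA. In FMR1 KO it was at 465, 296 and 477 CPM in the pellets and at 139.6, 143 and 128 CPM in RNA. Every pellet library was above every RNA library, and the log2 fold change was 2.94 ± 0.18 (adjusted p = 1.3e-05) in WT and 2.68 in FMR1 KO, the highest of the 9 in each genotype. Hspa4 (chr11:53259814-53300457, minus strand) was at 548, 531 and 564 CPM in the WT pellets and at 221, 278 and 291 CPM in WT RNA. Its FMR1 KO pellets were at 599.8, 385 and 596 CPM and its FMR1 KO RNA at 282, 273 and 279 CPM. These groups did not overlap either, and the log2 fold change of Hspa4 was 2.22 ± 0.16 (adjusted p = 2.2e-05) in WT and 2.01 in FMR1 KO.

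The mitochondrial pair was split. Hspa9 (chr18:34937414-34954357, minus strand) encodes mortalin, the HSP70 of the matrix that pulls in imported chains, and was at 286, 295 and 325 CPM in the WT pellets against 131, 153 and 167 CPM in WT RNA. Its FMR1 KO pellets were at 379, 217 and 326 CPM and its FMR1 KO RNA at 165, 155 and 177 CPM, again without overlap. Its log2 fold change was 2.17 ± 0.15 (adjusted p = 2.1e-05) in WT and 1.98 in FMR1 KO. Hspd1 (chr1:55077835-55088243, minus strand), the HSP60 gene, was at 94.0, 109 and 114 CPM in the WT pellets and higher, at 142, 154 and 162 CPM, in WT RNA. In FMR1 KO it was at 116, 78.1 and 115 CPM in the pellets and at 165, 165 and 160.4 CPM in RNA. On the TMM scale its log2 fold change was 0.63 ± 0.13 (adjusted p = 0.0036) in WT and 0.43 (adjusted p = 0.0051) in FMR1 KO, and with totals alone it was -0.53 (adjusted p = 0.0066) and -0.66 (adjusted p = 0.0239). Hspd1 and Hspa8 were therefore the members whose pellet levels fell below RNA on the scale of totals. Hspd1 shares 4.24% of its exon bases with Hspe1, the gene of its co-chaperone HSP10, which lies on the opposite strand.

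The ER pair had the lowest levels and, in the standard preparation, a high occupancy with a wide spread. Hspa5 (chr2:34771970-34777547, plus strand), the gene of BiP, was at 33.1, 31.5 and 78.8 CPM in the WT pellets and at 16.6, 16.1 and 20.2 CPM in WT RNA. In FMR1 KO it was at 62.1, 25.0 and 56.5 CPM in the pellets and at 20.1, 14.8 and 18.4 CPM in RNA. Hsp90b1 (chr10:86690209-86705509, minus strand), the gene of GRP94, was at 35.6, 36.1 and 80.9 CPM in the WT pellets and at 19.0, 15.5 and 19.8 CPM in WT RNA. Its FMR1 KO values were 66.5, 29.8 and 56.5 CPM in the pellets and 18.5, 18.3 and 19.1 CPM in RNA. Both genes were highest in the same pellets, WT replicate 3 and FMR1 KO replicates 1 and 3, and the other 3 pellets were the lowest for each. The log2 fold change of Hspa5 was 2.63 ± 0.41 (adjusted p = 8.6e-04) in WT and 2.49 in FMR1 KO, and that of Hsp90b1 was 2.68 ± 0.38 (adjusted p = 5.3e-04) and 2.51. Neither was called in the low nuclease libraries, where Hspa5 was at 0.27 (adjusted p = 0.6018) in WT and 0.20 (adjusted p = 0.7365) in FMR1 KO and Hsp90b1 at -0.05 (adjusted p = 0.9449) and -0.35 (adjusted p = 0.5343). Exons of Hsp90b1 shared 15.7% of their bases with other genes, among them Gm15344 on the same strand.

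The 3 members with the lowest occupancy, Hspd1, Hspa8 and Hsp90aa1, were the 3 with copied 30-nt windows over most of their coding sequence. With 100-nt windows, closer to an RNA-seq read or read pair, the share with a copy elsewhere was 69.8% for Hsp90aa1, 78.3% for Hspa8, 38.6% for Hspd1 and 0 for the other 6. Windows of 30 and 100 nt thus differ in how many copies they have in these 3 genes, and the part of this in the occupancy was not tested.

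**Figure D3:**
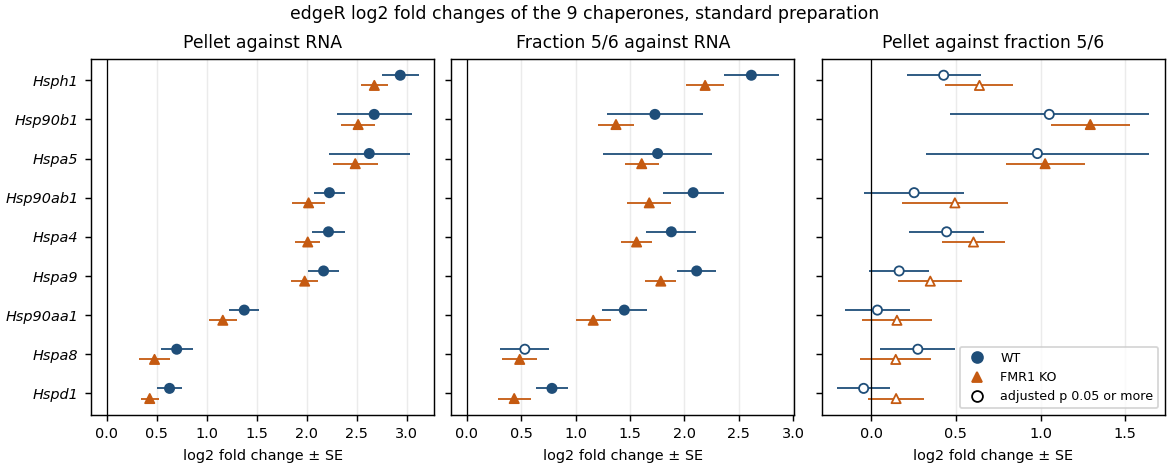
edgeR log2 fold changes of the 9 genes with their SE in the standard preparation, for pellet against RNA, fraction 5/6 against RNA and pellet against fraction 5/6, with WT as circles, FMR1 KO as triangles and open symbols where the adjusted p was 0.05 or more. Against RNA, all symbols lie right of 0 and Hspd1, Hspa8 and Hsp90aa1 stand lowest, and between pellet and fraction 5/6 only Hsp90b1 and Hspa5 in FMR1 KO are filled.

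Fraction 5/6 was compared with the same RNA libraries, so this comparison shares its controls with occupancy. In WT, 8 of the 9 members were called higher than RNA (28.3% of all genes tested were), and in FMR1 KO 9 were (29.7%). Hsph1 again had the greatest difference, at 2.62 ± 0.25 (SE, log2, edgeR adjusted p = 2.6e-04) in WT and 2.19 in FMR1 KO, and Hspa9 was at 2.11 and 1.78. Hspa8 was the member not called in WT, at 0.53 ± 0.22 (adjusted p = 0.0824), and at 0.35 (adjusted p = 0.1772) without the library labelled WT fraction 5/6 replicate 3. DESeq2 called Hspa8 in this comparison (0.52, DESeq2 adjusted p = 0.0084), and with it all 9 members, against 60.1% of all genes in either direction. That library held the ER genes at levels above the other WT fraction 5/6 libraries, with Hspa5 at 51.6 CPM against 17.9 and 9.08, and Hsp90b1 at 48.5 CPM against 14.9 and 13.96. Without it, the WT log2 fold change against RNA fell from 1.75 to 0.85 for Hspa5 and from 1.73 to 0.96 for Hsp90b1, and both were still called (adjusted p = 0.0063 and 0.0041). With totals alone, 2 members were called in WT (64.9% of all genes were) and 4 in FMR1 KO (63.4%), and Hspd1 (-0.47 and -0.46) and Hspa8 (-0.70 and -0.37) were below 0, not called. Leaving out 1 library gave 6 to 8 called members in WT and 7 to 9 in FMR1 KO. With the replicate number as a block, Hspa8 lost its call in FMR1 KO (0.48, adjusted p = 0.0731), where 57.4% of all genes were called. In the low nuclease preparation 4 members were called in WT (57.2% of all genes were) and 3 in FMR1 KO (34.3%), and among them Hsp90b1 was lower than RNA (-2.20 and -2.44, adjusted p = 0.0101 and 0.0081).

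Enrichment, the level in the pellet relative to fraction 5/6, was called by edgeR in FMR1 KO for the ER pair and for no other member of the standard preparation. Hsp90b1 was at 17.2, 29.3 and 30.6 CPM in FMR1 KO fraction 5/6 and was 1.29 ± 0.23 higher in the pellet (log2, SE, edgeR adjusted p = 0.0167). Hspa5, its partner in the ER, was at 19.2, 28.9 and 40.6 CPM in FMR1 KO fraction 5/6 and was 1.03 ± 0.23 higher in the pellet (adjusted p = 0.0375). These were 2 of the 9 members, against 10.1% of all genes called higher. The CPM of the pellet and fraction libraries of both genes overlapped, and the other 7 members lay between 0.15 and 0.64 with adjusted p of at least 0.0832. The count of called members fell from 2 to 0 when FMR1 KO pellet replicate 1 or 3 or FMR1 KO fraction 5/6 replicate 1 or 3 was left out, and when libraries were scaled by totals alone (0.99, adjusted p = 0.2208 for Hsp90b1 and 0.70, adjusted p = 0.3186 for Hspa5), where 1.22% of all genes were called. It was also 0 with the replicate number as a block, where 6.42% of all genes were called and the folds stayed at 1.30 for Hsp90b1 (adjusted p = 0.0584) and 1.00 for Hspa5 (adjusted p = 0.0983). DESeq2 called 5 members, adding Hsp90ab1, Hspa4 and Hsph1 to the ER pair (15.9% of all genes were called). In the low nuclease preparation edgeR called 4 (20.0% of all genes), Hsp90b1, Hspa4, Hspd1 and Hsph1, and Hspa5 was not among them, at 1.28 ± 0.44 (adjusted p = 0.0909).

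In WT, 0 of the 9 members were called in this comparison, where 0.0229% of all genes were, and 0 had an unadjusted p under 0.05 in edgeR. DESeq2 also called 0. Hsp90b1 was at 1.05 ± 0.59 (adjusted p = 0.6396) and Hspa5 at 0.98 ± 0.66 (adjusted p = 0.6412). Without the library labelled WT fraction 5/6 replicate 3 they were at 1.75 ± 0.52 (adjusted p = 0.1075) and 1.84 ± 0.55 (adjusted p = 0.1090), still not called, where 9.42% of all genes were. In that fit 4 members, these with Hspa4 and Hsph1, had an unadjusted p under 0.05 in edgeR, as did 27.8% of all genes. With the replicate number as a block and all libraries, Hspa5 was at 1.08 ± 0.13 (edgeR unadjusted p = 8.9e-04) and Hsp90b1 at 1.11 ± 0.18 (unadjusted p = 0.0028). The adjusted p was 0.3629 for each, and 0 of all genes were called in that fit. Low nuclease libraries gave a call for Hsp90b1 in WT, at 2.16 ± 0.28 (adjusted p = 0.0091), where 22.9% of all genes were, and Hspa5 was at 0.97 ± 0.47 (adjusted p = 0.1690). The difference in enrichment between the genotypes was not called for any member (0 of 9, where 0 of all genes were), with an interaction of 0.21 ± 0.67 for Hsp90b1 and of 0.01 ± 0.73 for Hspa5, and of -0.47 ± 0.56 and -0.83 ± 0.59 without that library. A difference between the genotypes in the enrichment of the ER pair was thus not called, and these errors leave room for one.

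Genotype left the members' levels without a called difference in every material. In the pellet, FMR1 KO against WT, 0 of 9 were called (0.0152% of all genes were, and 0 of the 9 had an unadjusted p under 0.05 in edgeR), with log2 fold changes from -0.11 to 0.08. In fraction 5/6 the count was 0 (0% of all genes), with values from -0.31 to 0.08, and in RNA it was 0 (0.0736%), with values from 0.03 to 0.24. In these, too, 0 had an unadjusted p under 0.05, and DESeq2 called 0. Without the library labelled WT fraction 5/6 replicate 3, Hspa5 was 0.75 ± 0.20 higher in FMR1 KO fraction 5/6, with an unadjusted p of 0.0102 and an adjusted p of 0.7297 in edgeR, and Hsp90b1 went from -0.26 to 0.41 (adjusted p = 0.8432). The interaction of genotype and occupancy was called for 0 of 9 (0.0670% of all genes), and all 9 values were between -0.22 and -0.10 on the log2 scale. The error was widest for the ER genes, with an SE of 0.49 for Hspa5 and 0.44 for Hsp90b1.

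The ratio of relatives within a library does not depend on how libraries are scaled. The log2 ratio of Hsp90aa1 to Hsp90ab1 had a mean of -1.65 in the 6 RNA libraries and of -2.51 in the 6 pellets, a difference of -0.86 that was -0.85 in WT and -0.86 in FMR1 KO, without overlap between pellet and RNA. The standard pellet RPFs were thus tilted towards Hsp90ab1 relative to RNA, but in the low nuclease libraries the difference was 0.20. Hspa8 to Hspa9 went from 2.47 in RNA to 0.99 in the pellets, a difference of -1.48. Hspa4 to Hsph1 went from 1.02 to 0.32, a difference of -0.70, towards Hsph1. Hspa8 to Hspa5 differed by -1.85 and Hsp90aa1 to Hsp90b1 by -1.22. These 5 of the 7 pairs passed an exact two-sided permutation test of 6 against 6 libraries with p = 0.0022, the smallest it can give, and an adjusted p of 0.0061 over the 14 tests made. Hsp90ab1 to Hsp90b1 (-0.37) and Hspa5 to Hspa9 (0.37) did not pass the permutation test (adjusted p = 0.1187 for each). In the low nuclease libraries Hsp90aa1 to Hsp90b1 (1.11) and Hspa8 to Hspa5 (0.42) also turned, so that 3 of the 5 pairs changed sign, and Hspa8 to Hspa9 (-0.74) and Hspa4 to Hsph1 (-0.52) did not. Of the 5 pairs, 4 hold Hsp90aa1 or Hspa8, genes with copied windows, and Hspa4 to Hsph1 holds none, as both genes have no copied 30-nt window.

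Between pellet and fraction 5/6, the ratio of Hspa8 to Hspa9 differed by -0.04 and that of Hspa4 to Hsph1 by -0.02, and neither passed the exact permutation test (adjusted p = 0.6807 and 0.7316). The other 5 pairs passed the exact permutation test, at -0.29 for Hsp90aa1 to Hsp90ab1 (adjusted p = 0.0370), -1.09 for Hsp90aa1 to Hsp90b1 (adjusted p = 0.0202) and -0.80 for Hsp90ab1 to Hsp90b1 (adjusted p = 0.0303). In the same permutation tests the values were -0.82 for Hspa8 to Hspa5 (adjusted p = 0.0370) and 0.77 for Hspa5 to Hspa9 (adjusted p = 0.0455). Without the library labelled WT fraction 5/6 replicate 3, all 5 had an adjusted p of 0.0061. With any of 8 other libraries left out (WT pellet replicate 3, FMR1 KO pellet replicates 1 and 3, WT fraction 5/6 replicates 1 and 2 and the 3 FMR1 KO fraction 5/6 libraries), a single pair passed.

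**Figure D4:**
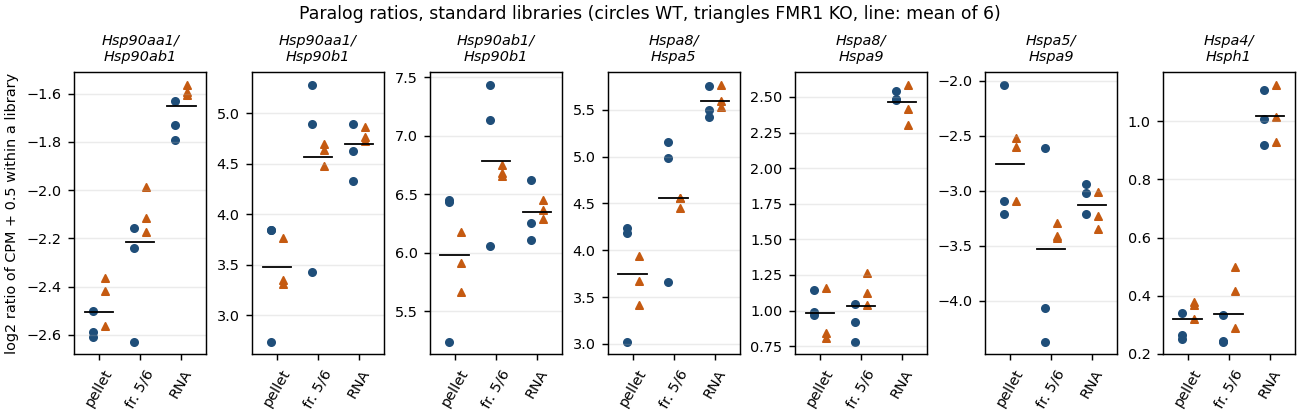
Log2 ratio of CPM + 0.5 between relatives within each standard library, for 7 pairs in the pellet, fraction 5/6 (fr. 5/6) and RNA, with WT as circles, FMR1 KO as triangles and a line at the mean of 6. Pellet and RNA do not overlap for Hsp90aa1/Hsp90ab1, Hsp90aa1/Hsp90b1, Hspa8/Hspa5, Hspa8/Hspa9 and Hspa4/Hsph1, whereas pellet and fraction 5/6 overlap for all 7 pairs.

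The standard and the low nuclease pellets differed most in the ER genes, which edgeR did not call in the main comparison but did call in WT with the replicate number as a block or with library totals. Hspa5 was at 162, 152 and 217 CPM in the low nuclease WT pellets and at 91.2, 180.2 and 119.5 CPM in the low nuclease FMR1 KO pellets, all above the standard pellets (25.0 to 78.8 CPM). The log2 fold change, standard against low nuclease, was -1.33 ± 0.43 (edgeR adjusted p = 0.0518) in WT and -0.98 ± 0.29 (adjusted p = 0.0642) in FMR1 KO. Hsp90b1 was at -1.02 ± 0.41 (adjusted p = 0.0922) and -0.44 ± 0.30 (adjusted p = 0.3016). The number of members called was 0 in WT, where 39.0% of all genes were called in either direction, and 0 in FMR1 KO, where 17.0% were. At an unadjusted p under 0.05 in edgeR the numbers were 5 and 1, against 50.9% and 39.2% of all genes. DESeq2 called 6 and 2, Hspa5 among them in each genotype, against 46.7% and 29.8% of all genes. With the replicate block Hspa5 (-1.48, adjusted p = 0.0122) and Hsp90b1 (-1.13, adjusted p = 0.0144) were called in WT, 2 of the 9 members, against 34.2% of all genes. With totals alone 4 members were called in WT, among them Hspa5 and Hsp90b1 (adjusted p = 0.0075 and 0.0119), and Hspa5 in FMR1 KO (adjusted p = 0.0343), against 51.2% and 27.8% of all genes.

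Most low nuclease RNA libraries also held more of the ER mRNAs than the standard ones. Hspa5 was at 98.7, 46.2 and 187 CPM in low nuclease WT RNA, against 14.8 to 20.2 CPM in the 6 standard RNA libraries. In low nuclease FMR1 KO RNA it was at 195, 24.2 and 8.99 CPM, where the values of 24.2 and 8.99 were those of the libraries with over 80% of their counts on 10 genes. Hsp90b1 showed the same order, at 100.1, 57.8 and 141 CPM in WT and at 112, 30.6 and 17.5 CPM in FMR1 KO, against 15.5 to 19.8 CPM in standard RNA. In the low nuclease preparation, occupancy was called for 3 members in each genotype, Hsph1, Hspa4 and Hspa9, with log2 fold changes of 2.00, 1.61 and 1.52 in WT, where 52.1% of all genes were called in WT and 28.9% in FMR1 KO. For Hspa5 and Hsp90b1 the difference in occupancy between the preparations was not tested. Nuclease strength, buffer and the make-up of the RNA libraries all differ between the preparations, and their parts cannot be told apart.

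The partners of these chaperones were taken from lists by role. Their counts and medians are on the TMM scale and were not made with totals alone. Scaling by totals moved the median occupancy of all genes by -1.13 in WT and -1.08 in FMR1 KO, so higher and lower here depend on the scaling. In WT occupancy, 9 of 12 HSP90 co-chaperones were called higher and 3 lower, with a median log2 fold change of 0.94, against 31.1% called higher, 34.2% called lower and a median of -0.10 over all genes. Stip1, the adaptor that joins HSP70 to HSP90, was at 1.91 ± 0.11 and Ptges3, the p23 co-chaperone, at -1.95 ± 0.13 (edgeR adjusted p = 1.1e-05 and 1.4e-05). Of the 18 J-proteins and nucleotide exchange factors, 12 were higher and 4 lower (median 0.92), with Dnaja2, a J-protein of the cytosol, at 2.35 ± 0.11 (adjusted p = 6.3e-06) and Bag1, an exchange factor, at -2.02 ± 0.27 (adjusted p = 3.8e-04). Of 11 other members of the HSP70 and HSP90 families, 7 were higher and 1 was lower (median 1.08). Trap1, the HSP90 of mitochondria, was at 2.25 ± 0.14 (adjusted p = 1.1e-05), and Hspa1l, a relative of the inducible HSP70, at -3.28 ± 0.50 (adjusted p = 7.8e-04). The inducible genes Hspa1a and Hspa1b, near-identical copies whose reads are uncertain between them, were at -0.11 and 0.29 and were not called.

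On the same TMM scale, the other lists were mixed or tilted downwards. Of 14 ER partners, 5 were higher and 4 lower (median -0.03), with Pdia3, an enzyme that folds secreted chains, at 2.25 ± 0.31 (edgeR adjusted p = 5.2e-04). The 4 lower genes are not named here. Of 7 mitochondrial partners, 2 were higher and 3 lower (median -0.10), with Timm44, which docks mortalin at the import channel, at 1.29 ± 0.10 (adjusted p = 3.3e-05) and Pam16, a regulator in the same import motor, at -2.68 ± 0.17 (adjusted p = 1.4e-05). Hspe1, which encodes the lid of the HSP60 chamber, was at -0.88 ± 0.20 (adjusted p = 0.0056), on the other side of 0 from Hspd1 on the TMM scale. Of 6 heat shock regulators and small heat shock proteins, 1 was higher and 4 lower (median -1.01), with Hsf2, a heat shock transcription factor, at 2.04 ± 0.10 (adjusted p = 7.2e-06) and Cryab, a small heat shock protein, at -1.66 ± 0.18 (adjusted p = 1.5e-04). In FMR1 KO, where 35.2% of all genes were lower, the counts of higher and lower genes were the same for 4 of these lists, with 8 and 1 in the other HSP70 and HSP90 family and 12 and 5 among the J-proteins and exchange factors. Between preparations, 9 of the 14 ER partners were lower in the standard than in the low nuclease WT pellets and 0 higher (24.0% of all genes were lower), and in FMR1 KO 1 was lower (9.54%).

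Across the 18 standard libraries, the genes whose log2 CPM most resembled a member's were named for 3 members, as a description. These libraries are 12 RPF and 6 RNA libraries and differ in depth. A correlation over them can hold the difference between those kinds, and how much of it does was not tested. For Hspa5 they were Psap (r = 0.98), Hsp90b1 (r = 0.96) and Smc5 (r = 0.94) among 13890 genes. For Hspa8 they were Osbpl2, Osbp and Apaf1 (each r = 0.97), and for Hsp90aa1 they were Srrt, Ddx5 and Vcpip1 (each r = 0.92). Among the members themselves, Hsp90ab1 and Hsph1 (r = 0.98) and Hspa8 and Hspd1 (r = 0.88) varied together, and Hsph1 and Hspd1 were opposed (r = -0.56).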

How the data were processed

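RPFs and RNA were measured in 36 libraries of WT and FMR1 KO mouse brain, in 12 groups of 3. Per the labels, the authors trimmed reads with cutadapt 2.10, removed non-coding RNA with Bowtie2 2.3.5, aligned to GRCm38 with STAR 2.7.8a and made the deposited counts per gene with featureCounts 2.2.0 (SAMtools 1.19.2 and Picard were also used). The deposited peak lists (12, standard preparation) hold the height of RPF coverage peaks on transcripts, which the authors defined as at least 4 times the transcript's mean coverage, and whether that filter was applied to these lists is not stated. Read length and the treatment of multiply matching reads are not given in the sources used here.

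Cdk8 was left out of the counts and library totals. Libraries were compared in edgeR 4.0.16 (R 4.3.3) with TMM scaling, its filter on low counts, the quasi-likelihood test and Benjamini-Hochberg adjustment over all genes tested, at a threshold of 0.05 and with a prior count of 2. All 9 members passed the filter in every comparison. Every adjusted p of a fold change in the text is from edgeR unless DESeq2 1.42.0 is named. Within-library ratios used CPM + 0.5 and exact permutation tests in SciPy 1.17.1. Peaks were matched by their centres on GENCODE M21 transcripts, proteins were aligned with Biopython 1.88 (BLOSUM 62), and 30-nt and 100-nt coding windows were searched in the genome. The edgeR fits were tested on simulated counts for some of the comparisons, and the permutation tests were not. Depth was 4284209 to 147207607 counts.

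All 9 members were described, the 3 genes most correlated with each of Hsp90aa1, Hspa8 and Hspa5 (mean CPM of at least 1) were named, and from each partner list at most the 3 called genes with the greatest absolute fold change could be named. Hspa1a, Hspa1b and Hspe1 fall outside that rule and were named after their values were seen. The members, the partner lists and the marker lists were chosen with earlier results of these data known. Alternatives were library totals or DESeq2 in place of TMM and edgeR, a looser filter, Cdk8 kept, a pseudocount of 5 CPM, the low nuclease libraries, the replicate number as a block, other matching distances and each library left out. Peaks on any transcript of a gene were added as an alternative after seeing the data.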

Additional observations from a re-analysis of the deposited data

Results flagged for a closer look

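In the 6 standard pellet lists, Hspa4 had 0.322 peaks per 1000 listed peaks in FMR1 KO pellet replicate 2, apart from the other 5 lists, of which the next highest was at 0.138. The gap was 0.755 of the whole range, above the critical value of Dixon for 6 values. Of the 35 sets of 6 examined it was the only one past that limit, and chance gives about 1 in 20 sets. The same library had the lowest CPM of all 9 members among the FMR1 KO pellets. Without it, the pellet lists held 0.109 ± 0.0270 Hspa4 peaks per 1000 (SD, n = 5) in place of 0.145 ± 0.0900, and the exact permutation p against fraction 5/6 went from 0.0779 to 0.0087. The list was singled out by these same Hspa4 rates, and its value was the pellet value nearest the fraction 5/6 mean of 0.353. The lower p therefore follows from that choice and is not adjusted for the members tested, so no conclusion is drawn from it.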

How the results depend on the processing

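With library totals in place of TMM, the number of members called (in either direction) went from 9 to 8 in occupancy in WT and 7 in FMR1 KO, to 2 in fraction 5/6 against RNA in WT, 4 in FMR1 KO, 0 in FMR1 KO enrichment, 4 in the preparation comparison in WT and 1 in FMR1 KO. Of all genes, 76.4%, 70.0%, 64.9%, 63.4%, 1.22%, 51.2% and 27.8% were called with totals in these comparisons, in that order. The sign of 39 of the members' values turned, 8 of them called with TMM or with totals. These were Hspa8 (-0.46 in WT, -0.60 in FMR1 KO) and Hspd1 (-0.53, -0.66) in occupancy, Hspd1 (-0.47, -0.46) and, in FMR1 KO, Hspa8 (-0.37) in fraction 5/6 against RNA, and Hspd1 (-0.41) between preparations in WT. The other 31 were called in neither fit, among them Hspa8 in fraction 5/6 against RNA in WT (0.53 to -0.70), Hsp90aa1, Hsp90ab1, Hspa4, Hspa9 and Hsph1 between preparations in both genotypes (-0.35 to -0.04 with totals), Hspd1 between preparations in FMR1 KO (-0.45), 4 in FMR1 KO enrichment, 6 in fraction 5/6 and 2 in the pellet between the genotypes and 7 in the enrichment interaction. DESeq2 called 9 members in fraction 5/6 against RNA in WT (Hspa8 added), 5 in FMR1 KO enrichment and 6 (WT) and 2 (FMR1 KO) between preparations. It called 60.1%, 15.9%, 46.7% and 29.8% of all genes there, in that order.

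In the low nuclease libraries, occupancy was called for 3 members in each genotype, fraction 5/6 against RNA for 4 (WT) and 3 (FMR1 KO), enrichment for 1 (WT) and 4 (FMR1 KO), and 3 ratios passed between pellet and RNA. Of all genes, 52.1% (WT) and 28.9% (FMR1 KO) were called in occupancy, 57.2% and 34.3% in fraction 5/6 against RNA, and 22.9% and 20.0% in enrichment. Signs turned in 21 of the members' values, 14 of them called in neither preparation. The other 7 were in occupancy for Hsp90b1 (-0.049 in WT, -0.35 in FMR1 KO), in fraction 5/6 against RNA for Hsp90b1 (-2.20, -2.44), Hspa5 (-0.70, -1.06) and, in FMR1 KO, Hspd1 (-0.10). Signs also turned in the ratios Hsp90aa1/Hsp90ab1 (0.20), Hsp90aa1/Hsp90b1 (1.11), Hspa8/Hspa5 (0.42) and Hspa5/Hspa9 (-1.16). The cause was not tested for any of these.

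Leaving out 1 library gave 8 to 9 members in FMR1 KO occupancy, 6 to 8 (WT) and 7 to 9 (FMR1 KO) in fraction 5/6 against RNA, 0 to 2 members in FMR1 KO enrichment, 0 to 2 (WT) and 0 to 1 (FMR1 KO) between preparations, 1 to 5 ratios against fraction 5/6 and 0 to 3 members by number of peaks (unadjusted exact p). It gave 2 between preparations without WT pellet standard replicate 3 and 1 without WT pellet low replicate 2 or FMR1 KO pellet low replicate 1. The shares of all genes called are not given for these fits.

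Replicate numbers did not pair the samples (correlations of same-numbered deviations -0.121 to 0.25, and no comparison with every pair above 0.1). With the replicate block, 0 members were called in FMR1 KO enrichment and 2 in WT between preparations, Hsp90b1 (-1.13) and Hspa5 (-1.48). In all, 112 of the members' calls were the same under the block, 2 were gained and 3 lost (the ER pair in FMR1 KO enrichment and Hspa8 in fraction 5/6 against RNA in FMR1 KO). Counting precision was lowest in the shallowest library, at 4284209 counts, and the part of depth in the spread of single genes was not tested.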
